A study of Rattus norvegicus with 2 samples.

Results

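The carnitine shuttle and the core enzymes of mitochondrial beta-oxidation were followed in rat liver through 10 genes taken by name from these steps. The choice was made with earlier results of these data known. The 10 genes comprise 3 shuttle genes (Cpt1a, Slc25a20 and Cpt2) and 7 genes of the oxidation steps on the matrix side (Acadvl, Acadl, Acadm, Acads, Hadha, Hadhb and Decr1). All probe sets, the groups of short probes that report a transcript, whose single gene symbol was one of these 10 were taken, which gave 11 of the 15866 probe sets on the array. Cpt1a had 2 probe sets and every other gene had 1. The whole array named 10411 genes by a single symbol.

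Total liver RNA came from SD rats, an outbred laboratory strain, with an age of 4 weeks and a feeding period of 9 weeks given for both samples. One array held RNA of the low-fat diet and the other RNA of the high-fat diet, and both diets were built on AIN93G, a purified rodent feed. How much fat each diet held, the sex of the rats and whether RNA was pooled are not stated in the labels. Each diet had 1 array, which gives no replicates, no error between animals and no test, so each difference describes these 2 arrays.

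Long-chain fatty acids cannot cross the inner mitochondrial membrane as acyl-CoA. Cpt1a, on the outer membrane, transfers the acyl group to carnitine, Slc25a20 exchanges the acylcarnitine for free carnitine across the inner membrane, and Cpt2 restores the acyl-CoA inside. Malonyl-CoA, the first committed product of fatty acid synthesis, inhibits the Cpt1 step, which makes this step the main control point of hepatic oxidation. Inside, acyl-CoA dehydrogenases of different chain-length preference start each turn of the cycle, the trifunctional protein made of Hadha and Hadhb completes it for long chains, and Decr1 removes double bonds that the cycle cannot process. In liver much of the acetyl-CoA produced goes to ketone bodies.

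The 250 bases before the annotated transcription start are shown for the shuttle genes, whose ratios lay close together, and for Hadha, whose window overlaps that of its partner subunit. They are RefSeq sequences on GRCr8, written in the direction of transcription, and capitals mark matches to the letters GGGCGG (the GC box) on either strand.
Cpt1a, chr1:209995910-209996159, plus strand: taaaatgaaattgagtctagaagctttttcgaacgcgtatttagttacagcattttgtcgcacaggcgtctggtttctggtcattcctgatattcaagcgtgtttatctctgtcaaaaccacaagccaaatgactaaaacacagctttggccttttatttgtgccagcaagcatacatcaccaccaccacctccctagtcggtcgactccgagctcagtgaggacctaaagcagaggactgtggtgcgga
Slc25a20, chr8:118243323-118243572, plus strand: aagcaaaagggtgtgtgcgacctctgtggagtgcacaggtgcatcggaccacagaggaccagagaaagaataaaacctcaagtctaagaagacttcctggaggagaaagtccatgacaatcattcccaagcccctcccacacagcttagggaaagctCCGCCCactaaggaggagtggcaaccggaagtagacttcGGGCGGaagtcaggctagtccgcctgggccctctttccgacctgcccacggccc
Cpt2, chr5:127910819-127911068, minus strand: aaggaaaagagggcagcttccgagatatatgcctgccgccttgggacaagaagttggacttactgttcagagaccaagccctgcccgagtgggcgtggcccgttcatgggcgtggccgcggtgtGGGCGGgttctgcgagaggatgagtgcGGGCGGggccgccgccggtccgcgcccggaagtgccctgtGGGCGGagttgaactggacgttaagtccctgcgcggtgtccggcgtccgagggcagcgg
Hadha, chr6:31907551-31907800, plus strand: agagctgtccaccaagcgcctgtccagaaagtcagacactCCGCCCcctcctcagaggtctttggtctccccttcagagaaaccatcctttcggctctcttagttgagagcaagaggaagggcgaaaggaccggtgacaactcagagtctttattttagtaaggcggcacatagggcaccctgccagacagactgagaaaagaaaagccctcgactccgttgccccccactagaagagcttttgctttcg

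The shuttle promoters differed in base composition. The Cpt1a window had a GC content of 45.6% and no GC box, that of Slc25a20 56.4% and that of Cpt2 66.8%, against a median of 51.2% over 33469 promoters of the same length. Slc25a20 had a GC box on each strand, and Cpt2 had 3 on the strand of transcription. Hadha and Hadhb are transcribed away from each other, with 300 bases between their starts, and 200 bases of their windows are the same stretch, at chr6:31907551-31907750. Promoter sequences were found for 8 of the 10 genes, the others being Acadl and Decr1. A GC box was in 5 of these 8 windows, against 30.5% of all promoters, but the Hadha match, at chr6:31907591-31907596, lies in the shared stretch and is also one of the Hadhb matches. The other motifs were searched on both strands in the same way. CCAAT was in the Acads window and in 34.0% of all promoters, and AGGTCA, the nuclear receptor half-site, was in the Acadvl window and in 14.1% of all. TATAAA (12.9% of all promoters), CACGTG (5.59%) and AGGTCANAGGTCA (0.0508%), the repeat bound by Ppara with its partner, which contains the half-site, matched in none of the 8. A match or its absence describes these letters in this window only.

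All 11 probe sets were well measured. The lowest of their signals was 11.9 times its array's floor, the median signal of the array, which was 15.7 on low-fat and 14 on high-fat. Ratios are given as log2 of high-fat over low-fat. They were centred on the median over the 7864 probe sets whose mean signal reached the floor, which was -0.117 before centring. Signals of different probe sets depend on their probes and do not rank transcripts.

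Every shuttle probe set was lower on the high-fat array. With probe set 1367836_at, Cpt1a read 476.1 on low-fat and 348.8 on high-fat, a centred ratio of -0.33. Its second probe set, 1386946_at, read 1224.1 and 882.9, a ratio of -0.35. The Cpt1a probe sets therefore differed by 0.02 in ratio. Slc25a20, the carnitine-acylcarnitine carrier (1398249_at), read 221.1 and 166.5, a ratio of -0.29. Cpt2, the inner membrane transferase (1386927_at), read 370.7 and 286.2, a ratio of -0.26. In the deposited signals the low-fat array was 1.30-fold to 1.39-fold higher for these 4 probe sets, and after centring 1.19-fold to 1.28-fold. The 4 ratios spanned 0.10.

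**Figure D1:**
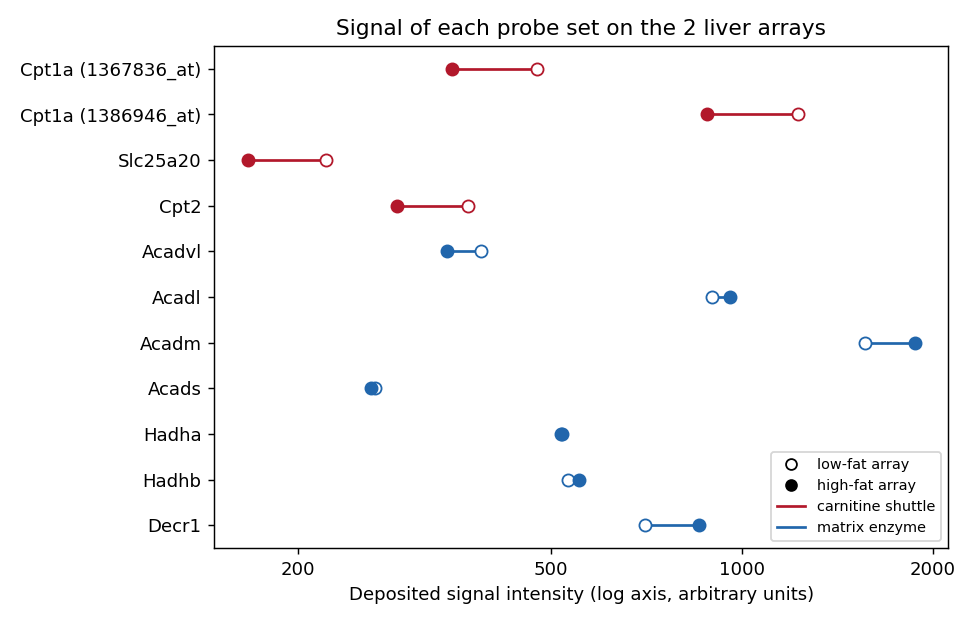
Deposited signal intensity of each of the 11 probe sets (log axis) on the low-fat array (open circles) and the high-fat array (filled circles), with shuttle genes in red and matrix-side genes in blue. The filled circle lies left of the open one for all 4 shuttle probe sets, from 1224.1 to 882.9 for the brighter Cpt1a probe set, and furthest to the right of it for Acadm and Decr1.

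The acyl-CoA dehydrogenase genes differed among themselves. Acadvl, the very-long-chain enzyme bound to the inner membrane (1367897_at), read 388.8 on low-fat and 343.1 on high-fat, a centred ratio of -0.06. Acadl, the long-chain enzyme (1367735_at), read 896.6 and 957.7, a ratio of 0.21. Acadm, the medium-chain enzyme (1367702_at), read 1565 and 1874.4, a ratio of 0.38. Acads, the short-chain enzyme (1367828_at), read 264.6 and 260, a ratio of 0.09 that was -0.03 without centring. The medium-chain gene thus had the highest ratio of the dehydrogenases, 0.44 above Acadvl and 0.29 above Acads, and the genes did not follow a single order from long to short chains.

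The trifunctional protein genes were nearly level in the deposited signals. Hadha, the alpha subunit with hydratase and dehydrogenase activity (1370164_at), read 519.7 and 520.6, a centred ratio of 0.12 that was 0.002 without centring. Hadhb, the beta subunit with thiolase activity (1367694_at), read 531.9 and 554.5, a ratio of 0.18 that was 0.06 without centring. These genes, which share the promoter stretch given above, differed by 0.06 in ratio. Whether the shared stretch bears on their ratios was not tested. Decr1, the 2,4-dienoyl-CoA reductase needed for polyunsaturated fatty acids (1367777_at), read 704.7 and 857, and its ratio of 0.40 was the highest of the 11 under every scaling run.

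**Figure D2:**
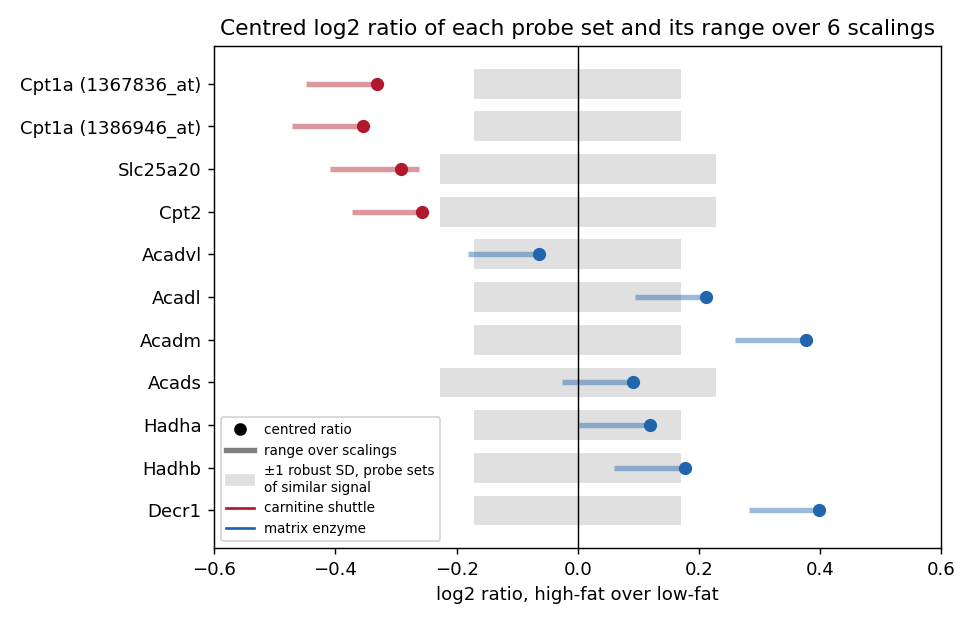
Each probe set is a point at its centred log2 ratio (high-fat over low-fat), with its range over 6 scalings (coloured lines) and, in grey, 1 robust SD on either side of 0 for measured probe sets in the same of 10 equal bins of signal. The shuttle points lie from -0.35 to -0.26 and the matrix-side points from -0.06 to 0.40, and the coloured line crosses 0 for Acads only.

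The ratios of the 3 shuttle genes and the 7 chosen matrix-side genes did not overlap. This holds for the chosen genes only, and how often other sets of these sizes lie apart was not counted. Of 19 other measured genes on a wider list for mitochondrial oxidation and electron transfer, 8 were higher and 11 lower. That list also held genes of amino acid and propionate breakdown and Decr2, a peroxisomal enzyme. Of the 19, Ech1, at -0.39, lay below the shuttle range and Acad10, at -0.27, within it. The median was -0.31 over the 4 shuttle probe sets and 0.18 over the 7 matrix-side probe sets, a difference of 0.49, or 1.40-fold, which a common scaling factor leaves as it is. The medians themselves depend on the scaling, and without centring they were -0.43 and 0.06. The matrix-side median was 0.12 with centring on the hybridization controls or with a pseudocount of 50. The lowest matrix-side ratio, that of Acadvl, was 0.19 above the highest shuttle ratio, that of Cpt2. Each of these genes had 1 probe set, and probe sets of the same gene differed with an SD of 0.17, close to this gap. Only quantile normalization, loess and a pseudocount of 50 could change this gap, which was then 0.20, 0.19 and 0.16. The largest contrast was between Cpt1a and Decr1, whose ratios differed by 0.73 and 0.75 with the respective Cpt1a probe sets. Acadvl, which acts on the longest chains, had the only matrix-side ratio below 0. Past 1.2-fold, 3 of the 4 shuttle probe sets (those of Cpt1a and Slc25a20) were lower, against 20.1% of all measured probe sets, and 9.69% of the 1238 measured probe sets with signals in the range of these genes. Acadm and Decr1 were the 2 of 7 matrix-side probe sets past 1.2-fold higher, against 18.1% of all and 13.2% of those in the range. Without centring the split of 3 lower and 2 higher became 4 lower (31.0% of all measured probe sets were then past that fold) and 1 higher (10.7%). None of the 11 was past 2-fold in either direction, where 0.903% of all measured probe sets were lower and 0.776% higher, and 0.323% and 0.727% of those in the range. The 6 of 7 matrix-side ratios above 0 (5 without centring) stand beside 55.3% above 0 in that range. The 4 of 4 shuttle ratios below 0, and the 5 of 11 over both groups, stand beside 44.7% below 0 there.

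The spread of other probe sets gave the only available scale for these sizes. The robust SD of the ratio was 0.17 in the brightest of 10 equal bins of signal, which held 8 of the 11 probe sets, and 0.23 in the next, which held Slc25a20, Cpt2 and Acads. All 4 shuttle ratios and 4 of the 7 matrix-side ratios (Acadl, Acadm, Hadhb and Decr1) were further from 0 than that value. Under the other scalings, with their own spreads, all 4 shuttle ratios still were, but Acadl and Hadhb were not. Acadm and Decr1 were joined only by Acadvl, without centring and on the lower side. The share of all measured probe sets beyond the robust SD of their own bin was not counted, so these counts have no background beside them. Among 60 genes with a further probe set in the same range of signal, the ratios of a gene's probe sets differed with an SD of 0.17. In 7 of these 60, Cpt1a among them, both were past 1.2-fold lower, which is 11.7%. Probe sets in the range of these genes had a median ratio of 0.02.

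**Figure D3:**
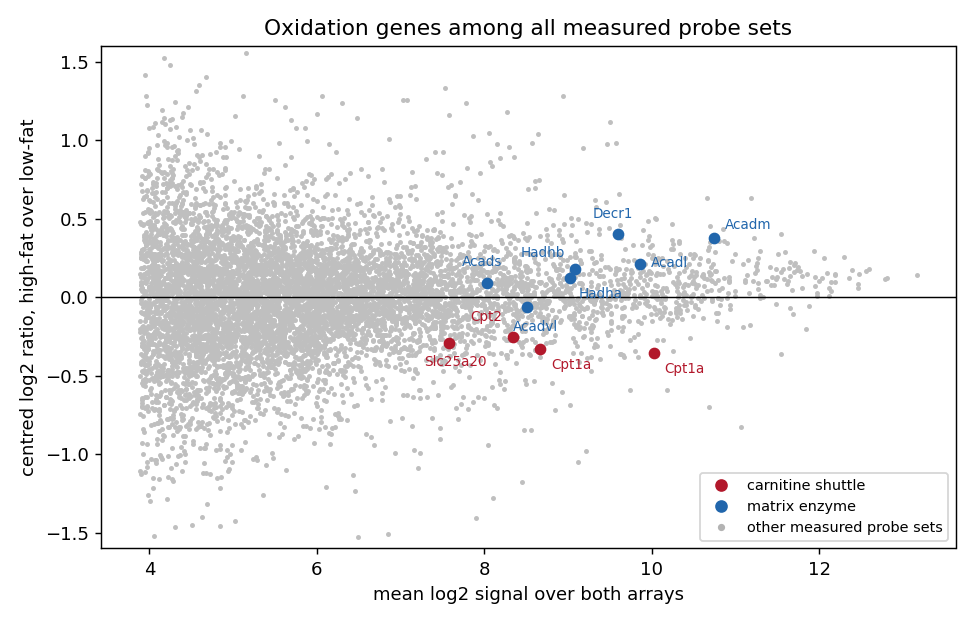
Centred log2 ratio (high-fat divided by low-fat signal) against mean log2 signal over both arrays for the 7864 measured probe sets (grey; 13 lie outside the plotted range of 1.6 on either side of 0), with the shuttle genes in red and the matrix-side genes in blue. All 11 points lie in the bright part of the plot, where the grey cloud is narrow, with the red points below 0 and 6 of the 7 blue points above it.

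Related acyltransferases diverged from one another. Crot, the peroxisomal carnitine octanoyltransferase that prepares shortened chains for export to mitochondria, read 192.2 on low-fat and 366.6 on high-fat, a centred ratio of 1.05. Its second probe set read 91.1 and 200.7, a ratio of 1.26. Over the scalings run the Crot ratios went down to 0.84 and 0.89, so that they were not past 2-fold under every one. After centring, 51 of all 6012 measured genes were past 2-fold higher, Crot among them. Crat, the carnitine acetyltransferase, was on the other side at -0.55, from 51 to 32.1, and at -0.24 with a pseudocount of 50. The muscle form Cpt1b, at 13 and 10, and the brain form Cpt1c, at 0.6 and 1.8, were below both floors, so Cpt1a was the Cpt1 form measured in this liver RNA.

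The steps before the shuttle went both ways. Of 10 genes of acyl-CoA activation and carnitine supply 7 were measured, of which 5 were lower and 2 higher, with a median of -0.11, beside 3008 lower of all 6012 measured genes. The synthetase gene Acsl1, counted as lower, was level, with ratios of -0.005 and 0.02 on its probe sets. With the floor at the 25th percentile the split was 4 lower and 4 higher. The acyl-CoA synthetase gene Acsl5 was at -0.36, from 669.3 to 482.1, and Tmlhe, the first enzyme of carnitine synthesis, at -0.32 (-0.10 with a pseudocount of 50). Bbox1, its last enzyme, was at 0.23. Past 1.2-fold, 2 of the 7 were lower and 0 higher, against 19.8% and 17.4% of all measured genes.

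Genes around malonyl-CoA were lower in all 6 that were measured of 8, also under each scaling run, with a median of -0.17, beside 3008 lower of all 6012 measured genes. Only Acaca, the carboxylase that makes malonyl-CoA, was past 1.2-fold, at -1.51, from 202.1 to 65.4, and 1 of 6 is near the 19.8% of all measured genes. Acaca was also past 2-fold lower, as 1 of 52 such genes among all 6012 measured. Mlycd, the decarboxylase that degrades malonyl-CoA, was at -0.24, and Prkab1, a subunit of the kinase that inhibits the carboxylases, at -0.19. Acacb, the carboxylase placed at mitochondria, read 7.1 and 1 and was not measured.

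Of 23 genes on the wider list for mitochondrial oxidation and electron transfer 19 were measured. Of these, 8 were higher and 11 lower, with a median of -0.06, beside 3008 lower of all 6012 measured genes. Without centring 5 were higher and 14 lower. The list held genes of amino acid and propionate breakdown, of which Ivd and Pccb were higher after centring and Gcdh, Acadsb, Pcca and Mcee lower. It also held Decr2, a peroxisomal reductase, at -0.18. Some enzymes of the next steps of the cycle had positive centred ratios. Hadh, the short-chain hydroxyacyl-CoA dehydrogenase, was at 0.27, Acaa2, a thiolase, at 0.13, and the hydratase gene Echs1 at 0.09, which was -0.03 without centring. Others went both ways, with Eci1 at 0.13, Eci2 at -0.06 and Hsd17b10 at -0.12. Etfdh, which passes the electrons to ubiquinone, was at 0.21, while Etfa and Etfb, the subunits of the flavoprotein that hands them on to it, were at -0.02 and -0.07. Ech1, which like Decr1 handles unsaturated chains, was at -0.39, from 795 to 558.9, and Acad10, a less studied dehydrogenase, at -0.27. Past 1.2-fold, Hadh was the 1 higher of 19, or 5.26%, against 17.4% of all measured genes, and Ech1 and Acad10 were the 2 lower, or 10.5%, against 19.8%. With a pseudocount of 50, Acad10 was at -0.15. Second probe sets of Hadh, Acaca and Crebbp did not reach the floor.

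Downstream and parallel routes held few measured genes. Of all 6012 measured genes 49.97% were above 0, and past 1.2-fold 17.4% were higher and 19.8% lower. Past that fold, 1 of 2 measured genes of ketone body synthesis was higher and 0 lower. Of 7 measured peroxisomal genes 2 were higher and 1 lower past it, and of 6 measured transcriptional regulators 1 was higher and 1 lower. In ketone body synthesis 2 of 4 were measured and both were higher. Bdh1, the hydroxybutyrate dehydrogenase, had ratios of 0.46 and 0.40 on its probe sets, and Acat1, the thiolase that joins acetyl-CoA units, was at 0.16. Of 12 genes of peroxisomal oxidation 7 were measured, 5 higher (4 under each of the other scalings) and 2 lower. Their median of 0.16 was 0.009 after quantile normalization, 0.05 without centring and 0.06 after loess. The oxidase genes Acox3 and Acox2 were at 0.62 (0.29 with a pseudocount of 50) and 0.49, and Ehhadh, the bifunctional enzyme, was at -0.29. Of 11 transcriptional regulators 6 were measured, 4 higher and 2 lower, with a median of 0.13, but 3 higher and a median of 0.02 without centring, and a median of 0.07 with a pseudocount of 50. Nr1h4, counted as lower, was level at -0.0004. Ppard, counted as higher, read 15.6 on both arrays, below the low-fat floor, and was above 0 only through the scaling. Crebbp, a coactivator, was at 0.59, Rxra, the partner of Ppara, at -0.45 and the liver factor Hnf4a at 0.15 (-0.02 on its second probe set), with signals from 17.8 to 80.1. With a pseudocount of 50, Crebbp was at 0.22 and Rxra at -0.11. Ppara itself, the nuclear receptor that activates many oxidation genes, read 2.2 and 4.1, below both floors.

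**Figure D4:**
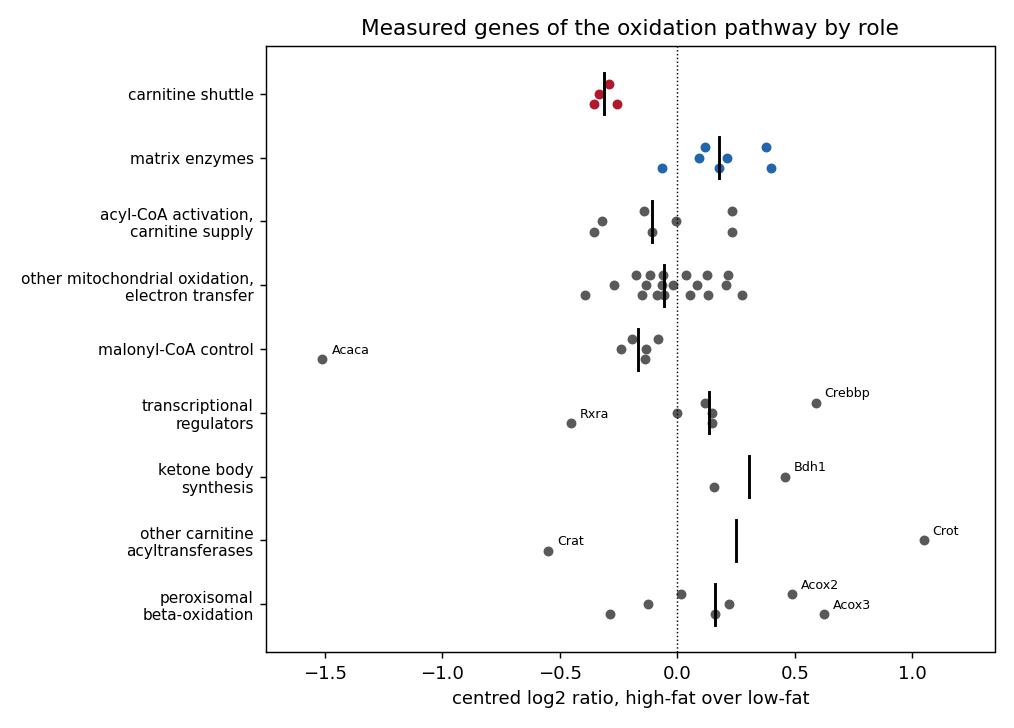
Centred log2 ratio (high-fat divided by low-fat signal) for the shuttle probe sets (red), the matrix-side probe sets (blue) and the measured genes of 7 further lists (grey, 1 probe set per gene), with a black bar at each median. The shuttle median is -0.31 and the matrix-side median 0.18, and Acaca at -1.51 and Crot at 1.05 lie furthest from 0.

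The RNA had the markers of liver. All 9 hepatocyte markers on the array of 10 listed were measured, with summed signals of 36691.6 on low-fat and 37331.7 on high-fat. All 9 were higher after centring, 6 without centring, 5 after loess and 4 after quantile normalization, with medians of 0.14, 0.02, 0.03 and 0. Of all measured genes, 49.97% were above 0 and 50.03% below after centring. The 4 measured stellate and fibroblast markers of 7 were all lower, with summed signals over the list of 402.4 and 294.6. Their median ratio was -0.43 after centring and -0.25 with a pseudocount of 50. Those of macrophages (6 of 6 measured) summed to 994.7 and 868.5, but after centring 3 were higher and 3 lower, with a median of 0.03. Those of endothelium (2 of 4 measured) summed to 304.6 and 259.4, and the 2 were lower, with a median of -0.21. No muscle marker was measured, and their sums were 20.5 and 25.3. The 3′/5′ ratios of the beta-actin and Gapdh controls were 2.69 and 1.58 on low-fat and 2.85 and 1.67 on high-fat. The part of cell composition and RNA quality in the ratios was not tested, and in whole tissue fewer cells of a type and less RNA per cell cannot be told apart.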

How the data were processed

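The deposited table held 1 linear signal intensity per probe set and array. How the authors went from scanned image to these intensities, and whether they scaled them, is not stated in the labels. The number of arrays limits the precision. Of 15923 probe sets, 57 controls were left out, and of the other 15866, 12783 had 1 symbol in the platform annotation, 312 several and 2771 none. Log2 values of the deposited intensities were taken without a pseudocount, after removing 4 probe sets that held a 0. Probe sets with a mean log2 signal at or above the mean of both array medians were called measured, and ratios were centred on their median. Robust SDs are scaled median absolute deviations. For the 7 pathway lists the brightest measured probe set of a gene was used. Named from each list were the 3 measured genes with the largest absolute ratios, and a fixed set. Some of that set is not reported here. Cpt1b, Cpt1c, Acsl1, Etfa, Etfb, Nr1h4, Ppard and second probe sets were added for context after their values were seen. So were Eci1, Eci2, Hsd17b10, Decr2, Ivd, Gcdh, Acadsb, Pcca, Pccb and Mcee. The members and lists were chosen with earlier results of these data known. The alternatives were no centring, centring on 18 hybridization controls, quantile normalization, loess (span 0.4), floors at the 25th and 75th percentiles, no floor, a pseudocount of 50 and 3 ways of choosing probe sets. The steps were tested on simulated data. Python 3.11.15, numpy 2.4.6, pandas 2.3.3 and statsmodels 0.14.6 were used.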

Additional observations from a re-analysis of the deposited data

How the results depend on the processing

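The signs of the shuttle and matrix-side medians were the same under all 11 other settings. The ratios of these genes did not overlap under any of them either. A common shift, the floors and the ways of choosing probe sets could not have changed that. Quantile normalization, loess and a pseudocount of 50 could, and the gap was then 0.20, 0.19 and 0.16. The shuttle median went from -0.43 to -0.29 and the matrix-side median from 0.06 to 0.20, with the low end of each without centring, and their difference from 0.42 to 0.49. The number of probe sets past 1.2-fold higher was 2, and 1 without centring, and the number lower was 3, with a range from 2 (a pseudocount of 50, or 1 value per gene, which counts Cpt1a once) to 4. Of the 11 ratios, that of Acads changed sign, and only without centring (-0.03). Without Acadvl, a choice made after seeing the data, the matrix-side median was 0.19. Lists with few measured genes moved with the floor, which changes the genes counted. With the floor at the 25th percentile, 4 genes of acyl-CoA activation were higher and 4 lower, 1 regulator was lower, and the other carnitine acyltransferases had 2 members lower and a median of -0.25. At the 75th percentile, 3 genes of acyl-CoA activation were lower, 1 regulator was higher and 1 lower, and Crot alone was left of the acyltransferases, with 0 lower and a median of 1.03. With no floor, 5 genes of acyl-CoA activation were higher and 5 lower, 7 regulators were higher, and the acyltransferases had 2 higher and 2 lower. Without centring, 5 genes of the wider list for mitochondrial oxidation were higher. No paired analysis was possible because each diet had 1 array. Signals were far above the floor for all 11 probe sets. The missing replicates and the unknown scaling of the deposited values both limit the ratios.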
